A study of Mus musculus with 9 samples.

Results

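Serum response factor (SRF) and 8 genes of the contractile and adhesion apparatus that are known SRF targets were followed in mouse embryonic stem cells: Srf itself, the calponins Cnn1, Cnn2 and Cnn3, the transgelins Tagln and Tagln2, the myosin light chain Myl9, vinculin (Vcl) and the LIM-domain gene Fhl2. These 9 genes were chosen by name, with no threshold on their values but with earlier results of these data known. They were measured among 35896 genes by summing the abundances of their annotated transcripts. The cells were E14, an established line of mouse embryonic stem cells, grown on gelatin in medium with serum, which all 3 groups shared, and poly(A) RNA was sequenced from 3 libraries per group. The control +LIF2i group was kept in self-renewal medium with LIF, 1 µM of the MEK inhibitor PD0325901 and 1 µM of the GSK3β inhibitor CHIR99021. The control -LIF2i group had these 3 agents withdrawn for 72 h, which starts spontaneous differentiation. The CK666 -LIF2i group was withdrawn in the same way for 72 h with 80 µM CK666, an inhibitor of the Arp2/3 complex, added from a DMSO stock. The labels do not say whether the control groups received DMSO, so CK666 and its solvent cannot be told apart. The replicates came from 1 cell line and carry the same numbers in the 3 groups, and the design text calls them paired and biological.

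SRF is a transcription factor that binds a short AT-rich element, the CArG box, in the promoters of genes for actin, its binding proteins and the immediate early response. In one branch of the pathway its coactivators of the MRTF family are held by actin monomers and are released to SRF when monomers are used up by filament assembly. The Arp2/3 complex nucleates branched actin filaments, a process that draws on the same monomers. Most of the contractile targets are best known from smooth muscle, whereas Srf, Vcl and the more widely expressed family members are found in many cell types.

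Matches to the CArG box in the promoter windows are shown first, since that is the element SRF is known to bind. RefSeq promoter windows (GRCm38.p6, from 250 bases before to 50 bases after a gene's start) were found for 8 of the 9 genes; Tagln was not among them. An exact CArG box of 10 bases, a sequence pattern that reads the same on both strands, was present in the windows of 5 of these 8 genes (Srf, Cnn2, Myl9, Vcl and Fhl2), and 1.81% of the 27025 genes with a window held one. Allowing 1 base off the pattern left the count at 5 of 8, against 23.8% of all genes with a window. The boxes stand in capitals in these stretches, each written 5′ to 3′ on the strand of its gene.
Srf, chr17:46556190-46556269, minus strand: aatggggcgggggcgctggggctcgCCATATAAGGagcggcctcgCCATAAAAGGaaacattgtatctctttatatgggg
Cnn2, chr10:79988519-79988578, plus strand: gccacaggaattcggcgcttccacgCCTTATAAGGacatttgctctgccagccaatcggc
Myl9, chr2:156775278-156775337, plus strand: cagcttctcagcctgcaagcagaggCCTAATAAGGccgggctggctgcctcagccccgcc
Vcl, chr14:20929148-20929205, plus strand: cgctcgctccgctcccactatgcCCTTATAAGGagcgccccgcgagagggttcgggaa
Fhl2, chr1:43163962-43164017, minus strand: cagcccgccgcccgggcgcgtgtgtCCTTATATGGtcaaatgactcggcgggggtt
Srf carried 2 boxes, starting 82 and 62 bases before its start. The box of Cnn2 started 56 bases before the start, that of Myl9 161 bases and that of Vcl 227 bases. Fhl2 had 2 windows for its alternative starts, with a box 31 bases before the start shown here, while the box in the other window lies in an annotated exon and is not shown. The windows of Cnn1, Cnn3 and Tagln2 held no exact box, which says only that these letters are not in these 300 bases. A match is a description of sequence and not a measured site of binding.

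The depth and the grouping of the libraries bear on all 9 genes. The libraries held 16894327 to 22550952 estimated counts. A floor of 3 counts equals 0.142 to 0.182 CPM, the unit used below for counts per library size with TMM scaling. The replicate 1 libraries had fewer genes above 0 (15690 to 17605) than replicates 2 and 3 (18166 to 18749), and they separated from the others on the second principal component, which carried 23.4% of the variance. As a check of the labelled cell type, the summed TPM (abundance scaled for library size and transcript length) of 5 pluripotency markers lay between 3331 and 3980 with LIF2i, between 1469 and 1864 after withdrawal and between 1660 and 1904 with CK666. Pou5f1 led this sum and was not called for withdrawal (log2 -0.24, SE 0.23, edgeR adjusted p = 0.42). The other 4 (Sox2, Nanog, Zfp42 and Esrrb) were called as lowered, with log2 values from -4.95 to -1.84, beside 19.7% lowered among all tested genes. With CK666 against withdrawal alone, edgeR called none of the 5, beside 2.05% of all tested genes, and DESeq2 and limma voom called none. At an unadjusted p under 0.05 there was 1, beside 19.7%, and edgeR without replicate 1 called 1, beside 12.3%. All 5 fitted values were above 0, with a median of 0.37. In bulk RNA, more cells that express a gene and more RNA per cell cannot be told apart.

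At the level of RNA per transcript length, the 9 genes spanned a wide range in self-renewing cells. Cnn3, the calponin of non-muscle cells, had the highest mean at 474 ± 177 TPM (SD, n = 3), followed by Tagln2, the broadly expressed transgelin, at 287 ± 27.9 TPM. Vcl, Cnn2 and Srf followed at 40.9 ± 16.5, 27.8 ± 15.2 and 20.6 ± 3.89 TPM, and their ranges overlapped from one to the next. Tagln, Myl9, Cnn1 and Fhl2 were at 2.51 ± 1.61, 0.916 ± 1.00, 0.791 ± 0.654 and 0.338 ± 0.0795 TPM, again with overlapping ranges between neighbours. After withdrawal, Cnn3 and Tagln2 still led at 301 ± 38.1 and 200.2 ± 78.7 TPM, but the 6 genes from Cnn2 (106 ± 36.5 TPM) down to Cnn1 (52.2 ± 13.1 TPM) now lay within overlapping ranges, and Fhl2 stayed last at 1.75 ± 1.34 TPM. With CK666 the order was the same at both ends, with Cnn3 at 309 ± 37.7, Tagln2 at 135 ± 31.0 and Fhl2 at 0.261 ± 0.131 TPM.

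**Figure D1:**
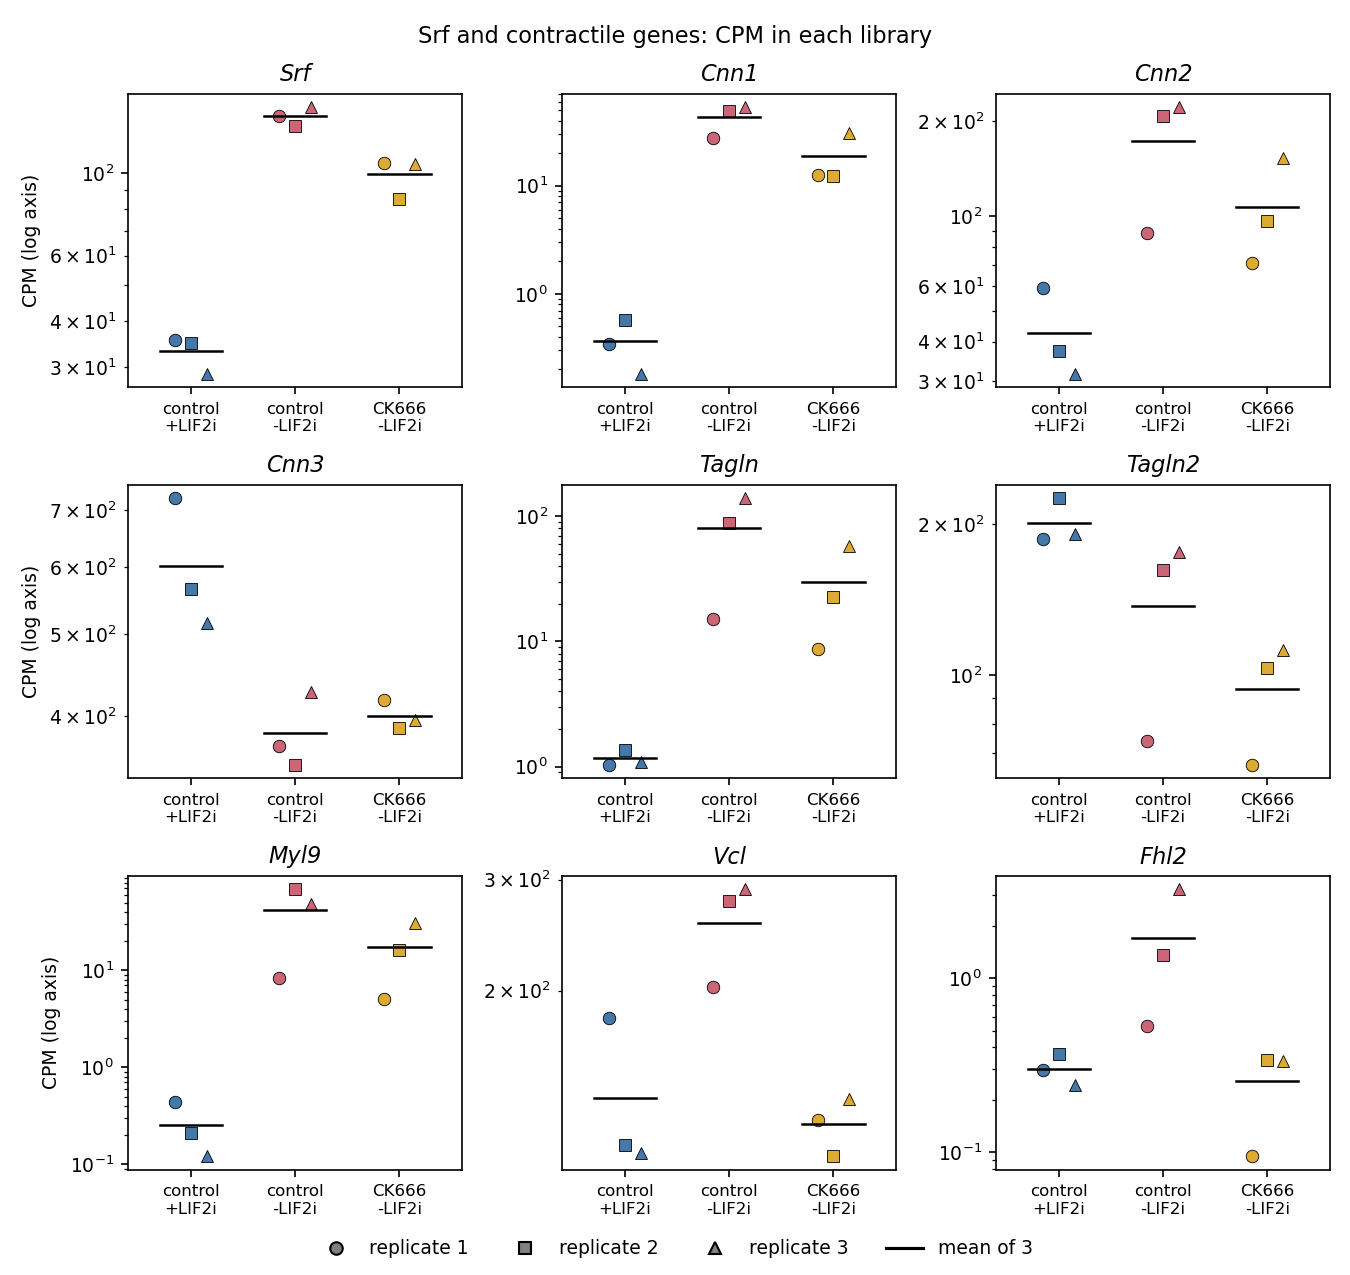
TMM-scaled CPM (log axis, 1 panel per gene) in the 3 libraries of each group; point shapes mark the replicate number and lines the mean of 3. Withdrawal separated the control groups for all 9 genes, with Cnn3 and Tagln2 lower and the other 7 higher, and the CK666 libraries lay below every control -LIF2i library for Srf, Vcl and Fhl2.

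The first comparison asked how these genes changed when LIF2i was withdrawn. Of the 9 genes, 8 passed the expression filter and were tested, and all 8 were called at an edgeR quasi-likelihood adjusted p-value under 0.05, 6 raised and 2 lowered. Withdrawal moved much of the transcriptome, since 40.7% of the 14648 tested genes were called (21.1% raised and 19.7% lowered). The control groups did not overlap in CPM for any of the 8, a pattern that 40.7% of tested genes showed. The median log2 fold change was 2.00 for the 8 genes and 0.0062 for all tested genes.

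Srf, the factor itself, was at 35.6, 34.9 and 28.9 CPM with LIF2i and at 143, 134 and 151 CPM after withdrawal, in the order of replicates 1 to 3. The groups lay far apart, and the highest library was 1.23 times the lowest with LIF2i and 1.13 times after withdrawal, the narrowest spread of the 6 raised genes in both groups. Srf rose 4.30-fold (log2 2.10, SE 0.14, edgeR adjusted p = 9.0e-06). All of the 22 other ways of fitting the data called it, with log2 fold changes from 1.97 to 2.24.

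Of the calponins, proteins that bind actin filaments and temper actomyosin, Cnn1 is the smooth muscle form. It was close to the detection floor with LIF2i, at 0.344, 0.575 and 0.182 CPM (7, 11 and 3 estimated counts), and at 27.4, 49.5 and 53.7 CPM after withdrawal. The groups lay far apart, with each library after withdrawal well above those before it, and the fitted log2 change was 6.78 (SE 0.43, edgeR adjusted p = 7.9e-06). Cnn2, which is expressed in many cell types, was at 59.2, 37.2 and 31.6 CPM and then at 88.5, 207 and 222 CPM. Its rise was present in each pair but small in replicate 1 (log2 0.58) and large in replicates 2 and 3 (2.47 and 2.81), with a fitted value of 1.90 (SE 0.42, edgeR adjusted p = 0.0092) that came to 2.57 without the control +LIF2i library of replicate 1. The call of Cnn2 was lost without replicate 2 (adjusted p = 0.19 by edgeR), without either control library of replicate 2 (0.071 with LIF2i and 0.051 after withdrawal) and with no filter on low counts (0.075). Cnn3 went the other way, from 723, 566 and 515 CPM to 368, 350 and 427 CPM. It fell in all 3 pairs, by 0.65 on the log2 scale (SE 0.14, edgeR adjusted p = 0.0060), and was not called without replicate 2 (0.063).

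Because Cnn3 fell while its paralogues rose, the make-up of the calponin RNA shifted more than its sum. The summed TPM of the 3 genes was 503 ± 193 with LIF2i and 460 ± 45.9 after withdrawal, with overlapping ranges. Cnn1 made up 0.143% ± 0.0836 of that sum with LIF2i and 11.3% ± 2.28 after withdrawal, and Cnn2 went from 5.32% ± 0.807 to 23.0% ± 6.93. Cnn3 correspondingly went from 94.5% ± 0.870 to 65.7% ± 9.22, and remained the main calponin in each library.

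The transgelins, small calponin-related proteins that bundle actin filaments, split in the same manner. Tagln, also called SM22α and an early smooth muscle gene, was at 1.03, 1.36 and 1.09 CPM with LIF2i and at 15.2, 87.8 and 139 CPM after withdrawal. All 3 libraries without LIF2i were far above those with it, but replicate 1 reached much less than the other two. The fitted log2 change of Tagln was 5.73 (SE 0.51, edgeR adjusted p = 7.4e-05), and it was 6.39 or 5.05 without the control +LIF2i library of replicate 1 or 3 and 4.95 with offsets from effective lengths. Tagln2 was at 186, 225 and 191 CPM and then at 74.1, 162 and 176 CPM. It was lower in all 3 pairs, steeply in replicate 1 and slightly in replicate 3, and fell by 0.64 on the log2 scale (SE 0.20, edgeR adjusted p = 0.026). This call was lost in 8 of the 22 other fits. The edgeR adjusted p was 0.26 without the replicate block, 0.098 without replicate 1 (where the value was -0.27), 0.090 without replicate 2, and 0.058 to 0.15 without any single control library of replicate 1 or 2, and limma on log2(TPM + 1) gave 0.093. Tagln made up 0.856% ± 0.552 of the transgelin TPM with LIF2i and 27.6% ± 9.53 after withdrawal, while the sum of Tagln, Tagln2 and Tagln3 was 293 ± 25.5 and 292 ± 140 TPM.

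Myl9 encodes a regulatory light chain of myosin II, whose phosphorylation switches on contraction. Its values were 0.442, 0.209 and 0.121 CPM with LIF2i (9, 4 and 2 estimated counts) and 8.39, 68.4 and 48.3 CPM after withdrawal. As for Tagln, the groups were far apart and replicate 1 was the lowest library after withdrawal. The fitted log2 change of Myl9 was 6.96 (SE 0.71, edgeR adjusted p = 1.5e-04), and 8.33 or 6.25 without the control +LIF2i library of replicate 1 or 3 and 6.30 without the control -LIF2i library of replicate 2. With protein-coding transcripts alone the fitted values were 8.96 for Myl9 and 7.51 for Cnn1, where the LIF2i library of replicate 1 is at 0 for both genes, so that these values depend on the prior count. On the log2(TPM + 1) scale, which understates the change of low genes, limma gave 4.93 for Cnn1, 4.44 for Tagln and 4.87 for Myl9. These 3 genes were called in each of these fits. Its widely expressed paralogues Myl12a and Myl12b also rose, by 0.70 (SE 0.17, edgeR adjusted p = 0.0095) and 0.84 (SE 0.18, edgeR adjusted p = 0.0050). Myl12a and Myl12b are near-identical neighbours that share exonic bases, so the division of reads between them is uncertain. Myl9 accounted for 0.264% ± 0.291 of the summed TPM of these 3 light chain genes with LIF2i and for 8.42% ± 4.93 after withdrawal.

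**Figure D2:**
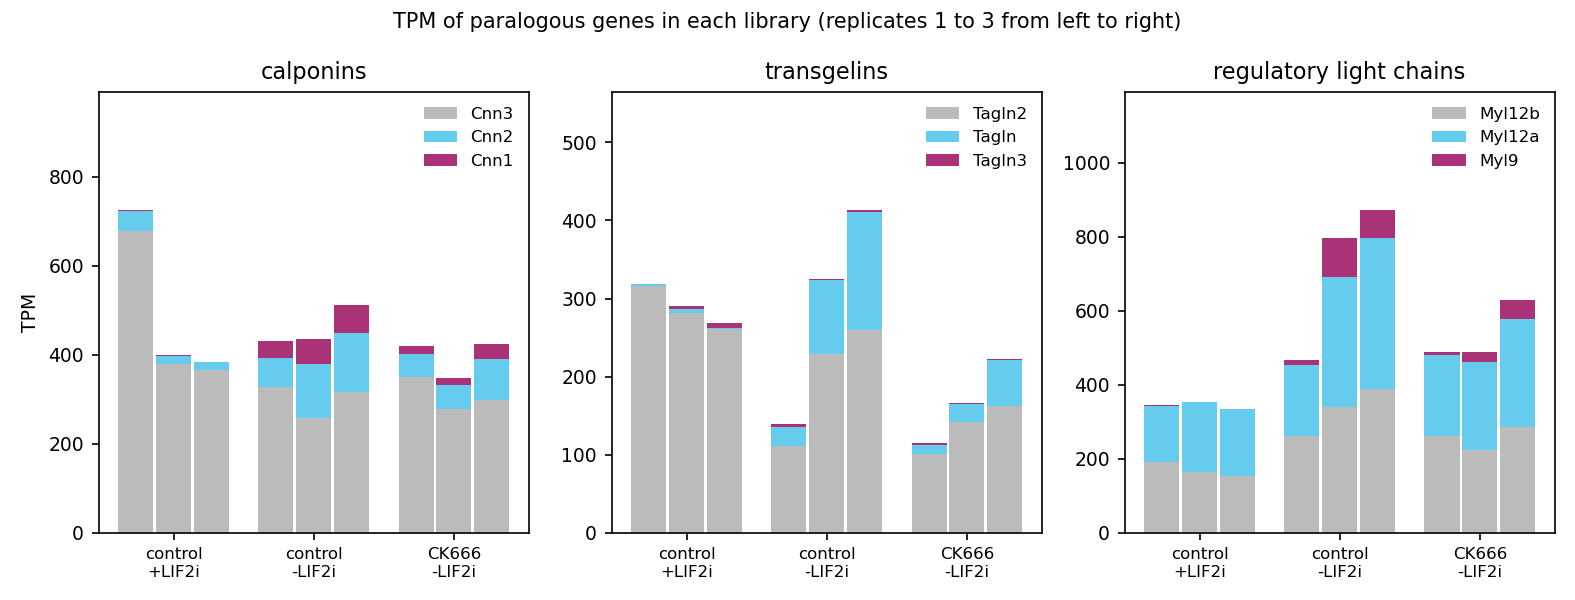
TPM of the calponin, transgelin and regulatory light chain genes, stacked, with 1 bar per library (replicates 1 to 3 from left to right in each group). Cnn3 and Tagln2 make up most of their bars in each library, and the Cnn1, Tagln and Myl9 parts are barely visible with LIF2i and appear after withdrawal, with smaller mean parts in the CK666 libraries.

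Vcl, which links integrin and cadherin adhesions to actin filaments, was already well expressed in self-renewing cells. It was at 181, 114 and 111 CPM with LIF2i and at 203, 277 and 289 CPM after withdrawal. The groups did not overlap, although the replicate 1 libraries came close to each other. Vcl rose 1.92-fold (log2 0.94, SE 0.21, edgeR adjusted p = 0.0071). It was not called without replicate 2 (edgeR adjusted p = 0.082) or without replicate 3 (0.087).

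Fhl2, a LIM-only protein that is both an SRF target and a binding partner of SRF, was too low for the expression filter. Its libraries held 6, 7 and 4 estimated counts with LIF2i and 11, 26 and 60 after withdrawal, or 0.295, 0.366 and 0.243 CPM against 0.531, 1.35 and 3.24 CPM. Each library after withdrawal was above each library before it. In a fit with no filter the log2 change of Fhl2 came to 2.16 (SE 0.79, edgeR adjusted p = 0.053), so the higher level did not pass the threshold there. Without the control +LIF2i library of replicate 1 or 3 it was 2.78 or 1.52. Of 11 fits that tested Fhl2, 4 called it, namely those without replicate 1 (edgeR adjusted p = 0.0076) or without any single library of replicate 1 (0.010 to 0.049).

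The second comparison asked what changed when Arp2/3 was inhibited during withdrawal. Of the 8 tested genes, 1 was called, Vcl, which was lowered; 2.05% of the 14648 tested genes were called (1.15% raised and 0.894% lowered). The fitted value was below 0 for 7 of the 8, with a median log2 fold change of -0.88 against 0.017 for all tested genes, of which 48.3% were below 0. Of the 8 genes, 6 had an unadjusted p under 0.05, as did 19.7% of all tested genes. With CK666, 8 of the 9 genes were lower in all 3 pairs, Cnn3 being the exception, as were 23.3% of all tested genes. Of the 8 tested genes, 2 had CK666 libraries that did not overlap those of the control -LIF2i group (Srf and Vcl, both lower), a pattern that 16.5% of all tested genes showed in either direction and 7.69% with CK666 lower.

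Vcl was at 203, 277 and 289 CPM after withdrawal alone and at 125, 109 and 135 CPM with CK666. The CK666 libraries lay below all control -LIF2i libraries and overlapped the cells kept in LIF2i (111 to 181 CPM). Vcl fell 2.10-fold (log2 -1.07, SE 0.21, edgeR adjusted p = 0.041). The direction was the same in all 22 other fits, with log2 values from -1.34 to -0.91, but the call held in 11 of them. Without the replicate block the edgeR adjusted p was 0.30, and limma on log2(TPM + 1) gave 0.088. The call was lost without replicate 2 (0.35), without replicate 3 (0.34), without any single library of these replicates (0.051 to 0.24) and without the CK666 library of replicate 1 (0.083), and it held without replicate 1 (edgeR adjusted p = 6.7e-04).

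Srf was at 143, 134 and 151 CPM after withdrawal and at 107, 85.4 and 106 CPM with CK666. The 2 groups did not overlap, and the difference was close to the same in each pair (log2 -0.42, -0.65 and -0.51). The fitted log2 change of Srf was -0.52 (SE 0.13, 95% interval -0.82 to -0.23), with an edgeR adjusted p of 0.070, so it did not pass the threshold over all genes. DESeq2 and limma voom, with the same block, gave adjusted p-values of 0.014 and 0.049. Only 4 of the 22 other fits called Srf. Besides these, they were edgeR without replicate 1 (0.031) and without the control +LIF2i library of replicate 1. Without the replicate block the edgeR adjusted p of Srf was 0.37.

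Cnn1 was at 27.4, 49.5 and 53.7 CPM after withdrawal and at 12.7, 12.3 and 30.9 CPM with CK666. Each CK666 library was below its same-numbered partner, while replicate 3 with CK666 lay above replicate 1 without it, so the groups overlapped. The fitted log2 change of Cnn1 was -1.27 (SE 0.30, 95% interval -1.93 to -0.61, edgeR adjusted p = 0.060). It was called by DESeq2 (adjusted p = 0.0037), by limma voom (0.026), and by edgeR with no filter (0.048) or without the control +LIF2i library of replicate 1 (0.026). These were the only 4 of the 22 other fits that called Cnn1. Without the replicate block its edgeR adjusted p was 0.44. Cnn2 was at 88.5, 207 and 222 CPM and at 71.1, 96.2 and 153 CPM, a fitted difference of -0.69 (SE 0.40, edgeR adjusted p = 0.39). Cnn3 did not separate the 2 groups, with 368, 350 and 427 CPM after withdrawal and 418, 387 and 396 CPM with CK666. Its fitted value was 0.066, with a 95% interval from -0.25 to 0.38 (edgeR adjusted p = 0.84). In TPM, Cnn1 made up 5.42% ± 2.10 and Cnn2 16.8% ± 4.80 of the calponin RNA with CK666, against 11.3% and 23.0% after withdrawal alone.

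Tagln had the lowest fitted value in this comparison and one of the widest spreads, going from 15.2, 87.8 and 139 CPM to 8.77, 22.7 and 58.3 CPM. Within each pair the CK666 library was lower, but the range between replicates was larger than the difference and the groups overlapped. The fitted log2 change of Tagln was -1.36 (SE 0.38, 95% interval -2.24 to -0.49, edgeR adjusted p = 0.10). Only 3 of the 22 other fits called Tagln. They were limma voom and edgeR without replicate 1 (adjusted p = 0.0082) or without the control +LIF2i library of replicate 1. Without the replicate block its edgeR adjusted p was 0.66. Myl9 had the same layout, with 8.39, 68.4 and 48.3 CPM against 5.12, 16.3 and 31.0 CPM. Its value was -1.16 (SE 0.47, 95% interval -2.23 to -0.10, edgeR adjusted p = 0.21). Tagln2, which withdrawal had lowered, was lower again with CK666, at 66.3, 103 and 112 CPM against 74.1, 162 and 176 CPM, a fitted value of -0.51 (SE 0.19, edgeR adjusted p = 0.19).

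Fhl2 fell outside the main test here too, with 2, 6 and 6 estimated counts with CK666 against 11, 26 and 60 after withdrawal alone. All 3 CK666 libraries were below all control -LIF2i libraries and close to or below those with LIF2i. With no filter on low counts its log2 change came to -2.58 (SE 0.79, edgeR adjusted p = 0.099), and 2 of the 11 fits that tested it called it, without replicate 1 (0.029) and without its control +LIF2i library (0.025).

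The replicate 1 libraries moved with these counts. When replicate 1 was left out of all groups, 7 of 9 genes were called as lowered by CK666 (Srf, Cnn2, Tagln, Tagln2, Myl9, Vcl and Fhl2), and 12.3% of all tested genes were called in that fit. When only the control +LIF2i library of replicate 1 was left out, 8 of 9 were called, all but Cnn3, beside 11% of all tested genes. When replicate 2 or replicate 3 was left out, or the replicate block was dropped, none of the 9 was called by edgeR, and 0.054%, 0% and 0% of all tested genes were. At an unadjusted p under 0.05, these 3 fits counted 4, 5 and 3 of the 9, 9 and 8 genes they tested, beside 8.78%, 9.09% and 8.54% of all tested genes.

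**Figure D3:**
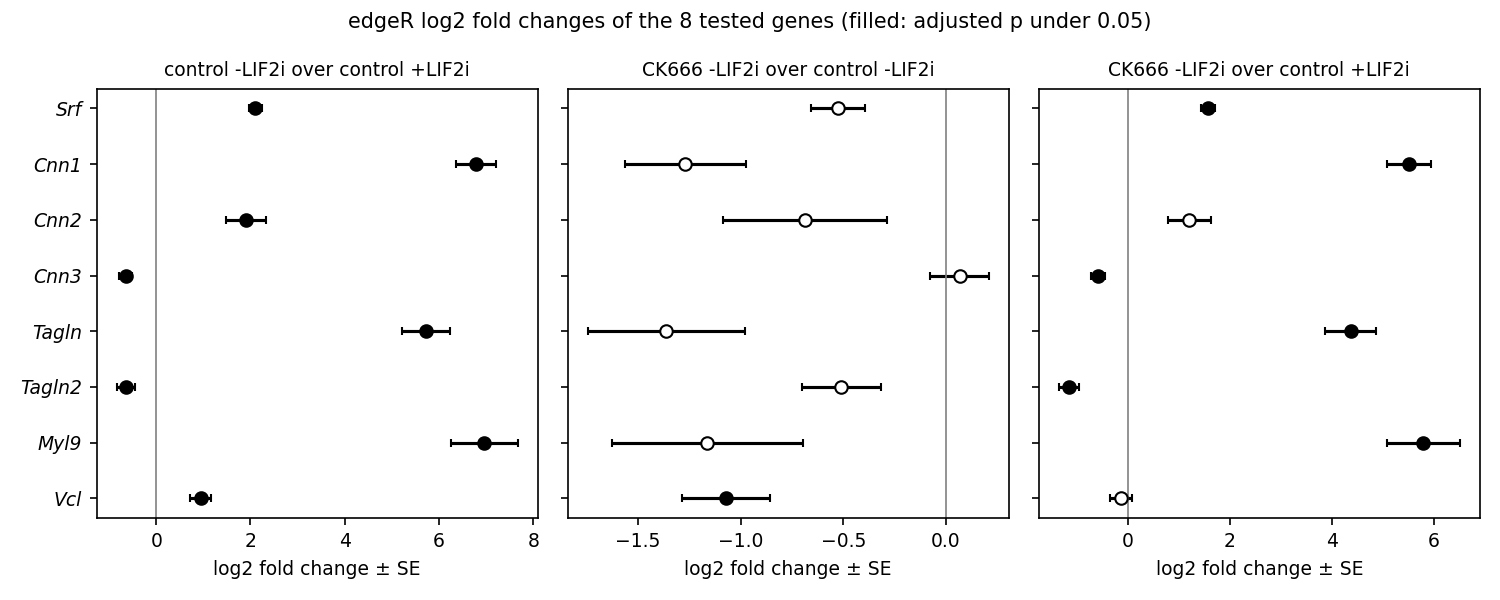
Fitted log2 fold changes (± SE) of the 8 tested genes for withdrawal (left), CK666 against withdrawal alone (middle) and CK666 against self-renewal (right), each with its own axis; filled points had an edgeR adjusted p under 0.05. All 8 points are filled for withdrawal and only that of Vcl is filled for CK666, where 7 of 8 lie below 0.

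The third comparison set the CK666 -LIF2i cells against the cells kept in LIF2i and shares its libraries with the other two. Of the 8 tested genes, 6 were called, 4 raised and 2 lowered, where 36.9% of all tested genes were called (19.8% raised and 17.1% lowered). Srf was 2.99-fold higher in withdrawn cells with CK666 than in self-renewing cells (log2 1.58, SE 0.13, edgeR adjusted p = 4.4e-05). Cnn1, Tagln and Myl9 were also raised, by 5.51 (SE 0.42, edgeR adjusted p = 2.8e-05), 4.37 (SE 0.50, edgeR adjusted p = 3.2e-04) and 5.80 (SE 0.71, edgeR adjusted p = 4.5e-04) on the log2 scale. These 4 genes were above self-renewal levels in all 3 pairs, and all 22 other fits called them. The sizes for Tagln and Myl9 moved to 5.03 and 7.16 without the control +LIF2i library of replicate 1 and to 3.67 and 5.06 without that of replicate 3. Over the 22 fits the values ran from 1.44 to 1.71 for Srf, 3.65 to 6.23 for Cnn1, 2.96 to 5.03 for Tagln and 3.76 to 7.80 for Myl9. Cnn3 and Tagln2 were lowered, by 0.58 (SE 0.14, edgeR adjusted p = 0.011) and 1.15 (SE 0.20, edgeR adjusted p = 0.0018); the call of Cnn3 was lost without replicate 2 (0.069).

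For the remaining genes this comparison did not reach the threshold. Cnn2 had a fitted log2 change of 1.21 (SE 0.41, 95% interval 0.25 to 2.17, edgeR adjusted p = 0.053), and 9 of the 22 other fits called it, with a value of 1.92 without the control +LIF2i library of replicate 1. Without the replicate block Cnn2 was called (edgeR adjusted p = 0.044) and Cnn3 was not (0.064). Vcl had a value of -0.13 with a 95% interval from -0.61 to 0.35 (edgeR adjusted p = 0.67). Fhl2 was at 0.295, 0.366 and 0.243 CPM with LIF2i and at 0.0948, 0.340 and 0.335 CPM with CK666, overlapping ranges at or near the floor.

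The size of what remained with CK666 was expressed as the share of the withdrawal change, on the log2 CPM scale, that was still present in the CK666 library of the same replicate number. For Srf the share was 78.9%, 66.6% and 78.6% in replicates 1 to 3. For Cnn1 it was 81.4%, 67.8% and 89.5%, for Tagln 79.0%, 67.1% and 81.7%, and for Myl9 82.2%, 73.5% and 91.8%. Replicate 2 had the lowest share for each of these 4 genes. The shares of Cnn1 and Myl9 rest on LIF2i libraries at or near the floor (3 counts of Cnn1 and 2 of Myl9 in replicate 3), so their values depend on the prior count of 2 added before taking logs. Cnn2 kept 45.7%, 55.3% and 81.0%. Vcl stood apart from them: its CK666 library was below its LIF2i partner in replicates 1 and 2, giving shares below 0, and kept 20.5% of the rise in replicate 3. No share is given for Cnn3 and Tagln2, which were lowered by withdrawal, or for Fhl2. The shares have no test, and on the log2(TPM + 1) scale they were 50.7% to 78.0% for Tagln, 64.6% to 84.4% for Cnn1 and 67.9% to 89.9% for Myl9. On the linear CPM scale, an alternative chosen after the values were seen, the shares were lower and in another order, at 60.1% ± 7.98 (SD, n = 3) for Srf, 42.4% ± 16.9 for Cnn1, 40.2% ± 15.0 for Tagln, 48.8% ± 22.0 for Myl9 and 46.4% ± 15.4 for Cnn2.

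The counts of each gene were also followed by transcript. For Srf, Cnn2, Cnn3, Tagln, Myl9 and Vcl a single annotated protein-coding transcript held most of the counts after withdrawal. Cnn1 counts after withdrawal were divided mostly among 3 protein-coding transcripts, of which Cnn1-201 held 64.4%, 67.1% and 66.4%. In TPM, which corrects for transcript length, a shorter one of them, of 868 bases, was above it, at 57.5%, 47.3% and 40.8% of the gene against 35.1%, 35.8% and 35.2%. In Tagln2, Tagln2-202 held 72.8% to 87.3% of the counts and Tagln2-201 most of the rest, although in TPM Tagln2-201 was the higher in replicate 3 after withdrawal (51.1% against 48.6%). In replicate 1 with LIF2i all 7 Cnn1 counts and all 9 Myl9 counts were assigned to transcripts annotated as non-coding, whereas the counts after withdrawal were assigned almost wholly to protein-coding forms. Fhl2 counts after withdrawal and with CK666 were all in Fhl2-201, whose start lies 31 bases from the box shown above, while 10 of the 17 counts with LIF2i were in Fhl2-202.

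Some of these genes share sequence with a neighbour on the other strand, and the sources do not state that reads were counted by strand, so reads of the partners cannot be told apart where they overlap. Tagln (GRCm38 chr9:45929619-45936058) shares 67.9% of its exonic bases, with Pcsk7, a convertase gene, and with an antisense gene model that was not analysed here. Pcsk7 was at a mean of 11.8 CPM both with LIF2i and after withdrawal and at 9.96 CPM with CK666, and was not called in either comparison (edgeR adjusted p = 1.00 and 0.54). Vcl (chr14:20929398-21033676) shares 25.5% with Ap3m1, an adaptor subunit gene, which had log2 fold changes of -0.26 on withdrawal and 0.055 with CK666 (edgeR adjusted p = 0.11 and 0.85). Cnn3 (chr3:121426497-121458207) shares 17.7% with a gene model that was not analysed here. Srf (chr17:46548329-46556175), Cnn1 (chr9:22099216-22109630), Cnn2, Tagln2, Myl9 and Fhl2 share none.

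The rest of the pathway was described with lists of genes by role. Of 8 tested coactivators and partners of SRF, 0 were raised and 2 were lowered by withdrawal, with a median log2 fold change of -0.11, where 21.1% of all tested genes were raised and 19.7% lowered. The genes lowered were the ternary complex factor Elk3 by 1.14 (SE 0.26, edgeR adjusted p = 0.0072) and the TEAD factor Tead1 by 0.68 (SE 0.20, edgeR adjusted p = 0.025). None of the 8 was called by edgeR for CK666, beside 2.05% of all tested genes, and their median was 0.19. At an unadjusted p under 0.05 there were 2, beside 19.7%. DESeq2 and limma voom each called 1, and both called more genes in all for CK666 than edgeR did, as given in the section on processing. Myocd, the smooth muscle coactivator, did not pass the filter.

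Of 23 other tested genes known as actin-regulated SRF targets, withdrawal raised 14 and lowered 2, beside 21.1% raised and 19.7% lowered among all tested genes, and the median log2 fold change was 1.53 against 0.0062. Actc1, the cardiac actin, was at 0 in all LIF2i libraries and at 0.868, 13.2 and 8.20 CPM after withdrawal, so it was at least 45.7-fold higher, taking 3 counts in each LIF2i library as the floor. Acta2, the smooth muscle actin, rose by 5.95 (SE 1.38, edgeR adjusted p = 0.013) and the matricellular gene Ccn1 by 4.96 (SE 0.50, edgeR adjusted p = 1.9e-04). The genes lowered were Lima1, an actin-bundling LIM protein, by 0.95 (SE 0.15, edgeR adjusted p = 9.7e-04) and the integrin Itga5 by 0.88 (SE 0.19, edgeR adjusted p = 0.0054). With CK666, 1 of the 23 was called by edgeR, beside 2.05% of all tested genes, and 9 had an unadjusted p under 0.05, beside 19.7%. DESeq2 called 4 and limma voom 2, but both tools called more genes in all for CK666 than edgeR did. The gene called by edgeR, Actc1, was at 0.0948, 0.849 and 1.90 CPM and fell by 3.00 (SE 0.53, edgeR adjusted p = 0.041). The fitted values were below 0 for 18 of the 23, with a median of -0.42, where 48.3% of all tested genes were below 0 and their median was 0.017. Acta1, Acta2 and Actc1 are close paralogues, so reads may have been divided among them.

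The immediate early genes are SRF targets reached mainly through its other branch, in which MAP kinase signalling acts on ternary complex factors, and a MEK inhibitor was part of the LIF2i medium. Of 6 tested, withdrawal raised 3: Egr1 by 5.37 (SE 0.49, edgeR adjusted p = 5.0e-05), Fosb by 3.03 (SE 0.91, edgeR adjusted p = 0.025) and Junb by 0.78 (SE 0.27, edgeR adjusted p = 0.045). That is 3 of 6, beside 21.1% raised among all tested genes. With CK666, Egr1 was at 0.711, 2.04 and 1.51 CPM against 6.90, 7.94 and 25.1 CPM after withdrawal alone, and the groups did not overlap. Its fall of 3.07 on the log2 scale had an SE of 0.42 and an edgeR adjusted p of 0.019, and it was the 1 gene of the 6 called, beside 2.05% of all tested genes. At an unadjusted p under 0.05 there were 5 of the 6, beside 19.7%. DESeq2 called 4 and limma voom 1, but both tools called more genes in all for CK666 than edgeR did. The median was -1.49 against 0.017 for all tested genes.

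Upstream, 11 genes from RhoA to actin turnover were tested. Withdrawal raised 3, the actin monomer binder Pfn1 by 0.90 (SE 0.15, edgeR adjusted p = 0.0014), the filament-severing Cfl1 by 0.59 (SE 0.16, edgeR adjusted p = 0.019) and the cofilin kinase Limk1 by 0.45 (SE 0.13, edgeR adjusted p = 0.021). It lowered 3, the formin Diaph3 by 0.66 (SE 0.12, edgeR adjusted p = 0.0027), Limk2 by 0.64 (SE 0.11, edgeR adjusted p = 0.0013) and Rhoa by 0.49 (SE 0.11, edgeR adjusted p = 0.0054). Of all tested genes, 40.7% were called in this comparison. None of the 11 was called by edgeR, DESeq2 or limma voom for CK666, where edgeR called 2.05% of all tested genes. At an unadjusted edgeR p under 0.05 there was 1, beside 19.7%, and the median was -0.086. Of 6 tested paralogues of the 9 genes, withdrawal raised 3 (Fhl3 by 1.27, SE 0.22, edgeR adjusted p = 0.0017, besides Myl12a and Myl12b), and none was called for CK666 by these 3 tools or had an unadjusted edgeR p under 0.05. Without the replicate block edgeR called no gene of any list for CK666. For withdrawal that fit called 15 of the 23 other actin-regulated targets, 2 of the 6 paralogues and 1 immediate early gene. It called 1 coactivator or partner and 0 of the RhoA genes, where 24% of all tested genes were called. Without replicate 1 edgeR called 9 of the 11 RhoA genes and 3 of the 8 coactivators and partners for withdrawal, beside 44.8% of all tested genes. It also called 20 of the 23 other actin-regulated targets, 4 of the 6 paralogues and 2 of the 6 immediate early genes there. For CK666 the same fit called 8 of the 23 other actin-regulated targets and 2 of the 6 immediate early genes. It also called 3 of the 11 RhoA genes, 2 of the 8 coactivators and partners and 2 of the 6 paralogues, beside 12.3% of all tested genes.

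**Figure D4:**
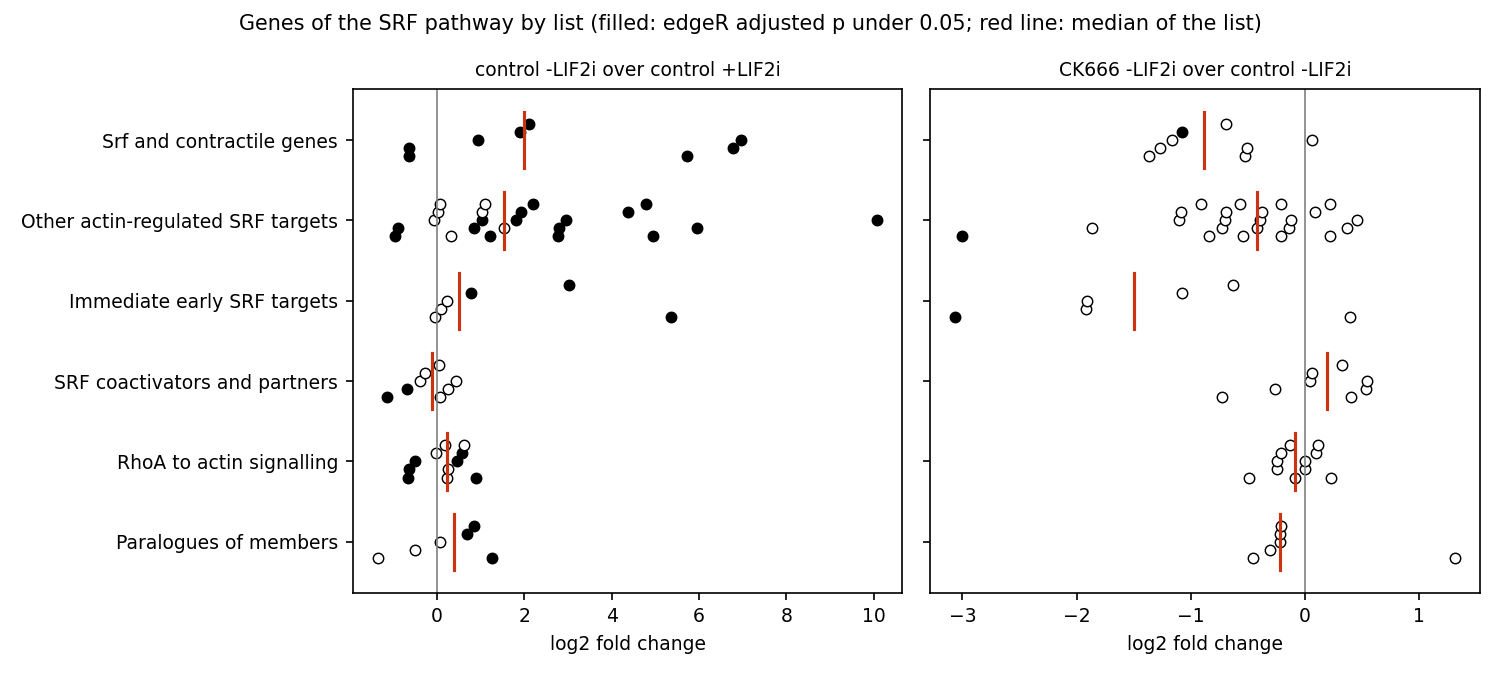
Fitted log2 fold change of each tested gene by list, for withdrawal (left) and CK666 against withdrawal alone (right), with separate axes; filled points had an edgeR adjusted p under 0.05 and the red line is the median of the list. The contractile genes and the other actin-regulated targets have medians of 2.00 and 1.53 on the left and -0.88 and -0.42 on the right, where the filled points are Vcl, Actc1 and Egr1; the rightmost point on the left is Actc1, whose fitted value rests on libraries at 0.

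Markers of other cell types that these genes could come with were measured beside them. The summed TPM of 7 smooth muscle markers, of which Acta2, Myh11, Lmod1 and Smtn are also on the target list, was 28.9 to 36.2 with LIF2i, 56.4 to 113 after withdrawal and 42.8 to 70.1 with CK666; withdrawal raised 4 of 6 tested, beside 21.1% of all tested genes. Smtn had the highest group means, although Acta2 was above it in the control -LIF2i library of replicate 2 (53.5 against 42.3 TPM), while Myh11, the smooth muscle myosin, was at most 0.209 TPM in every library and Myocd at most 0.325 TPM. For 7 fibroblast markers the sum was 4.77 to 7.32, 24.5 to 31.2 and 14.6 to 24.4 TPM, led by Thy1; withdrawal raised 4 of 5 tested (edgeR called 2 without the replicate block), and Lum was at 0 in all libraries with LIF2i and with CK666. For 6 trophoblast markers the sum was 65.3 to 103, 176 to 389 and 119 to 380 TPM, led by Tfap2c with LIF2i and by Krt18 without it; Cdx2 and Elf5 did not pass the filter, and withdrawal raised 3 and lowered 1 of 4 tested, where 19.7% of all tested genes were lowered. The sum of 6 primitive endoderm markers was 4.80 to 9.07, 9.58 to 30.4 and 11.9 to 23.2 TPM, and that of 6 mesoderm markers 4.27 to 8.36, 4.77 to 10.9 and 2.71 to 5.81 TPM. Withdrawal raised 1 of the 6 primitive endoderm markers tested, beside 21.1% of all tested genes. This was Dab2 (log2 2.80, SE 0.25, edgeR adjusted p = 4.0e-05). The other 5 were not called, and Gata4 had a value below 0 (log2 -0.42, SE 0.38, edgeR adjusted p = 0.41). The summed TPM of the control groups did not overlap, with Dab2 leading the sum after withdrawal. It raised 1 of the 4 mesoderm markers tested, Mixl1 (log2 4.21, SE 1.08, edgeR adjusted p = 0.012), beside 21.1% of all tested genes. Mixl1 was at 0 to 0.105 CPM with LIF2i and at 0.415 to 1.08 CPM after withdrawal. The LIF2i values lie below the floor of 3 counts, so the size of its change is uncertain. The other 3 were not called, and the summed TPM of the control groups overlapped. For CK666, edgeR called 0 of the tested genes of these 5 lists, beside 2.05% of all tested genes. In each list 1 gene had an unadjusted p under 0.05, beside 19.7%. DESeq2 called 1 mesoderm and 1 trophoblast marker and limma voom 0. Without replicate 1 edgeR called 2 of 4 trophoblast and 1 of 6 primitive endoderm markers, beside 12.3% of all tested genes. The part of these markers in the values of the 9 genes was not tested.

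Finally, the genes whose profile was most like that of Srf were sought among 9497 protein-coding genes whose mean log2 CPM reached 3, by the root mean square difference of centred log2 CPM over the 9 libraries. The 5 nearest were Pid1 (0.159), Slit3 (0.171), Slc43a1 (0.185), Bcar1 (0.187) and Pde3b (0.187), where the median gene was at 0.982. Of the contractile genes, Cnn2 ranked 335th at 0.486 and Vcl 1398th at 0.734. Cnn3, Tagln2 and Tagln ranked 7647th, 8607th and 9269th, of which the first 2 went down on withdrawal and Tagln rose further than Srf. Cnn1 and Myl9 were below the level required. The 9 libraries share 3 groups and replicate numbers, and the ranks are a description with no test.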

How the data were processed

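Poly(A) RNA was measured in 9 libraries, 3 per group. Per the submitters' processing notes, FastQC, cutadapt 1.8.1, kallisto and sleuth were used and the builds mm10 and GRCh38 are named with no role; the kallisto version, transcript release and strand setting are not given in the sources used here. The authors deposited estimated counts and TPM for 119414 transcripts per library. From these, GENCODE M21 (GRCm38) gave a gene, by transcript ID, for 116640 transcripts (97.7%) and 35896 genes in all, and the others held 0.895% to 1.08% of the counts of a library. Estimated counts were summed per gene, rounded and tested with edgeR 4.0.16 in R 4.3.3: TMM scaling, the expression filter (14648 genes), the robust quasi-likelihood test over all 9 libraries with the replicate number as a block (4 residual degrees of freedom), and Benjamini-Hochberg adjustment over all tested genes at 0.05. Standard errors were derived from the test statistic. CPM are TMM-scaled, and TPM were summed per gene and used wherever levels of different genes are compared. Means are given ± SD over 3 libraries.

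The pairing comes from the design text and the titles. Deviations from group means correlated at 0.30 to 0.65 between libraries of the same number (median 0.41) and at a median of -0.37 between different numbers. The deviations of a group sum to 0 for each gene, so these medians are linked and the negative one adds no separate information. As replicate 1 stood apart from the others, these values cannot tell pairing from an offset of replicate 1 alone. The 22 alternatives were 10 with another method or scaling (among them DESeq2 1.42.0, limma 3.58.1 and no block) and 12 that left out libraries; a fit that left a group with fewer libraries assumed that these vary like the rest. Intervals and floors cover counting error only, except the 95% intervals of fold changes, which cover the spread between libraries.

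The 9 genes and the lists were chosen with earlier results of these data known. From each pathway list the genes named are those called for CK666 and, for withdrawal, the 3 raised and 3 lowered called genes with the largest change; the overlapping neighbours and Myl12a and Myl12b are named for shared sequence. Marker lists are given by their sums and counts, and the markers named from them were chosen after their values were seen.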

Additional observations from a re-analysis of the deposited data

How the results depend on the processing

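With no replicate block the genes called went from 5967 to 3509 for withdrawal, from 300 to 0 for CK666 and from 5408 to 2966 for CK666 against self-renewal, and the contractile genes called for CK666 from 1 to 0. For CK666, DESeq2 called 1136 genes and 3 of the contractile genes, limma voom 553 and 4, edgeR with no filter 565 and 2, and limma on log2(TPM + 1) 42 and 0, while offsets from effective lengths gave 148 genes. Leaving out libraries gave 0 to 1811 genes and 0 to 8 contractile genes for CK666, 3099 to 6588 genes and 4 to 9 contractile genes for withdrawal, and 2413 to 6129 genes for CK666 against self-renewal. Srf, Cnn1, Tagln and Myl9 were called for withdrawal in all 22 alternatives, Cnn3 in 21, Vcl in 20, Cnn2 in 18 and Tagln2 in 14. Over the fits that left out libraries, Cnn3 with CK666 ranged from -0.060 to 0.21, with a changed sign without the control -LIF2i library of replicate 1 (-0.060) and without replicate 1 (-0.0056). Vcl in CK666 against self-renewal ranged from -0.33 to 0.21, with a changed sign without the control +LIF2i library of replicate 1 (0.21) and without replicate 1 (0.12). None of these values was called. Where libraries were left out, fewer samples entered the fit; otherwise the cause was not tested. Depth limits Cnn1, Myl9 and Fhl2 with LIF2i, which had 2 to 11 estimated counts per library.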

Other observations

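Outside the 9 genes, 172 tested genes had an exact CArG box in a promoter window, a split made after the values were seen. Withdrawal raised 48 and lowered 33 of them (47.1% called, against 40.7% of the 11058 tested genes with any window), and their median log2 fold change was 0.14. For CK666, edgeR called 0 as raised and 2 as lowered (1.16%, against 2.04%), with a median of -0.091.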
